A study of Mus musculus with 6 samples.

Results

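The 10 genes described here carry out triglyceride synthesis and lipolysis: Gpd1, Gpam, Agpat2, Lpin1, Dgat1, Dgat2, Pnpla2, Lipe, Lpl and Fabp4. They were chosen by name for their place in the pathway, with earlier results of these data known. Their probes were found through the RefSeq accession printed for each spot. All 10 were on the array, with 22 probes, and all 10 passed the filter on dim probes, with 20 probes, among 18217 named genes of which 12824 were tested. Expression was measured in epidermis at postnatal day 0 on 6 Agilent 1-colour arrays. The 3 AhRCA mice carried a transgene for a constitutively active aryl hydrocarbon receptor (AhR) under the keratin 14 promoter, which is known to be active in basal keratinocytes. The 3 wild-type (WT) mice were their littermates. An AhRCA and a WT sample with the same replicate number were taken as a litter pair, a match that was assumed. The strain was given as mixed for both genotypes.

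Triglycerides are built on glycerol 3-phosphate, which Gpd1 makes from a glycolytic intermediate. Acyltransferases of the Gpam and Agpat families add fatty acids, lipins such as Lpin1 remove the phosphate, and the diacylglycerol acyltransferases Dgat1 and Dgat2 add the last fatty acid before the product is stored in lipid droplets. Pnpla2 and Lipe release fatty acids from the droplet again, Lpl frees them from lipoproteins outside the cell, and Fabp4 carries them inside the cell. In skin the pathway is known from sebocytes, adipocytes and differentiating keratinocytes, and loss of Dgat2 in mice is known to impair the epidermal water barrier.

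On each array 56.2% to 61.3% of spots were well above background and 0 were saturated. Slide 1 carried litter pairs 1 and 2, and slide 2 carried pair 3, so that pair 3 and slide 2 cannot be told apart. The number of arrays, 3 per group, limits the precision. Transcript values are normalised log2 intensities, in which 0 is the 75th percentile of an array, and different probes cannot be ranked against each other by level. Ahr was read by a single probe, of which it is not known here whether it detects the transgene, and its log2 fold change, AhRCA minus WT, was -0.49 ± 0.10 (SE, n = 3 per group, limma adjusted p = 0.0653). Cyp1a1, a direct target gene of AhR, stood 135-fold above WT in AhRCA epidermis (adjusted p = 0.00470, limma). Of the marker lists checked, 7 of 7 keratinocyte genes were well above background on all 6 arrays. In contrast 7 of 8 endothelial genes, among them Pecam1, Cdh5 and Kdr, were not well above background on any array. Genes of other cells were also detected on all 6 arrays: 7 of 11 sebaceous gland, 6 of 8 fibroblast and 6 of 7 macrophage genes. The same held for 5 of 8 brown adipocyte, 3 of 7 skeletal muscle and 1 of 7 white and general adipocyte genes.

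Gpd1 fell in AhRCA epidermis, and it was the 1 gene of the 10 to pass the test. Its intensity was 6.76-fold lower than in WT. Lpl and Fabp4 had lower means in AhRCA and Lpin1 a higher mean, none of which passed across all genes. The acyltransferases Gpam, Agpat2, Dgat1 and Dgat2 and the lipases Pnpla2 and Lipe had log2 fold changes between -0.28 and 0.01, and none of them passed. By limma, with Benjamini-Hochberg adjustment over the 12824 tested genes, 0 of the 10 rose and 1 fell. Of all tested genes 2.18% were called, 0.530% higher and 1.65% lower in AhRCA. At an unadjusted p under 0.05, 1 of the 10 was higher and 2 were lower, where 4.62% of all tested genes were higher and 7.57% lower at that threshold. Groups that did not overlap were found in 2 of the 10 genes, both with AhRCA lower, where 8.84% of all genes had that pattern, and in 0 with AhRCA higher, where 7.52% had it (16.4% in either direction). A difference of more than 1.5-fold was seen in 4 of the 10, against 8.03% of all genes. The median log2 fold change was -0.11 over the 10 genes and 0.00129 over all tested genes.

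**Figure D1:**
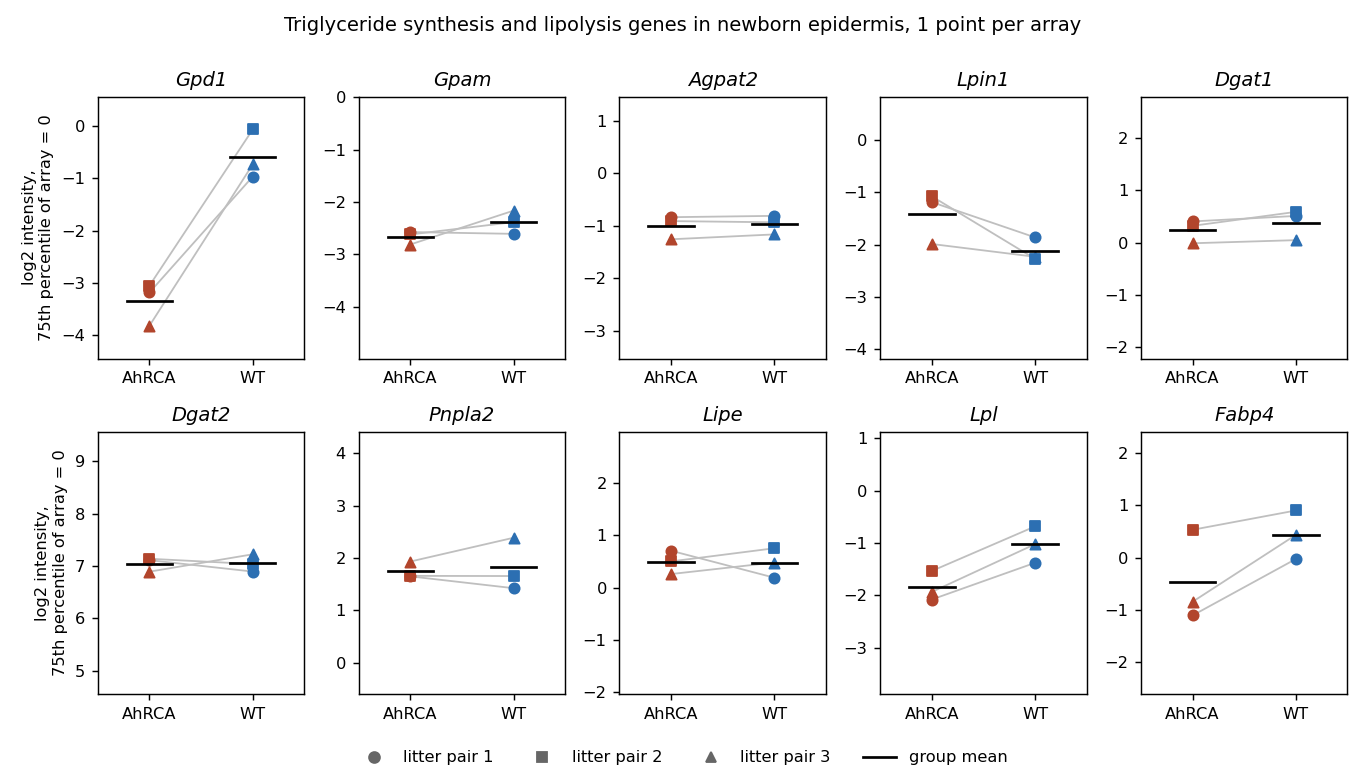
Normalised log2 intensity (0 is the array's 75th percentile) of the probe that stands for each of the 10 genes, with AhRCA left of WT, 1 point per array, point shapes and grey lines for litter pairs and black bars for group means; every panel spans the same number of log2 units. Gpd1 shows the widest gap, with AhRCA between -3.81 and -3.05 and WT between -0.97 and -0.07, and Lpl is the other gene whose groups do not overlap.

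Gpd1 encodes the cytosolic glycerol-3-phosphate dehydrogenase, which supplies the backbone of triglycerides. Its normalised log2 intensity was -3.18, -3.05 and -3.81 in AhRCA 1 to 3, against -0.97, -0.07 and -0.73 in WT 1 to 3. All 3 AhRCA values lay more than 2 log2 units below the lowest WT value, and the probe was well above background on all 6 arrays. The log2 fold change was -2.76 ± 0.29 (SE, n = 3 per group, 95% interval -3.46 to -2.06, adjusted p = 0.0104, limma). Within the litters the AhRCA mouse was lower each time, with log2 differences of -2.21, -2.98 and -3.08. With normexp background correction the log2 fold change was -1.98, and within slide 1 alone, with 2 arrays per group, it was -2.60 and missed the threshold (adjusted p = 0.0696). A further Gpd1 probe was well above background on 1 array only and was not tested.

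Among the enzymes that add fatty acids, 0 of 4 passed, also at an unadjusted p under 0.05 (limma). Gpam, the mitochondrial glycerol-3-phosphate acyltransferase, had normalised log2 intensities of -2.57, -2.62 and -2.81 in AhRCA and -2.61, -2.38 and -2.16 in WT. The groups overlapped: AhRCA 1 lay inside the WT range and AhRCA 2 just below it. The log2 fold change was -0.28 ± 0.15 (95% interval -0.64 to 0.07, adjusted p = 0.585, limma). Agpat2, which acylates lysophosphatidate, had -0.84, -0.91 and -1.26 in AhRCA and -0.81, -0.93 and -1.16 in WT, so that the values of littermates differed by at most 0.09. Its interval for the log2 fold change ran from -0.41 to 0.35.

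Dgat1 and Dgat2 catalyse the same last step but are unrelated in sequence. Dgat1 had normalised log2 intensities of 0.40, 0.32 and -0.01 in AhRCA, against 0.51, 0.59 and 0.05 in WT. It was lower in the AhRCA mouse of each litter, with log2 differences between -0.27 and -0.06, yet the groups overlapped (log2 fold change -0.14 ± 0.19, adjusted p = 0.981, limma). Its other probe had a log2 fold change of -0.15. Dgat2 had 7.11, 7.14 and 6.89 in AhRCA and 6.90, 7.04 and 7.23 in WT. Litter pair 3 went against the other two, with a log2 difference of -0.33 in pair 3 and of 0.22 and 0.10 in pairs 1 and 2. The 95% interval of the Dgat2 log2 fold change was -0.32 to 0.31, and its 3 probes gave values between -0.07 and -0.00458.

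Lpin1, a phosphatidate phosphatase that is also known as a transcriptional coactivator, was the only member with a clearly positive mean difference, and its probes differed in size. The probe with the brightest mean stood at -1.19, -1.08 and -1.99 in AhRCA, against -1.86, -2.27 and -2.23 in WT. AhRCA 3 lay inside the WT range, and the log2 fold change was 0.70 ± 0.26 (95% interval 0.08 to 1.33, adjusted p = 0.331, limma). The probe A_52_P483104 stood at -1.85, -1.60 and -2.10 in AhRCA and at -3.13, -2.91 and -2.69 in WT, and A_52_P483101 at -1.34, -1.06 and -2.17 in AhRCA and at -3.53, -3.49 and -2.35 in WT. On both of these probes all AhRCA arrays were above all WT arrays. With every kept probe tested on its own, these 2 probes had log2 fold changes of 1.06 ± 0.18 (adjusted p = 0.0588, limma) and 1.60 ± 0.41 (adjusted p = 0.178). In that test 1.10% of all probes were called, 0.292% higher and 0.812% lower in AhRCA.

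The Lpin1 difference was unequal between the litters. On A_52_P483101 the AhRCA mouse was higher by log2 differences of 2.19 and 2.42 in pairs 1 and 2, and by 0.18 in pair 3. On A_52_P483104 the values were 1.28, 1.31 and 0.59, and on the brightest probe 0.67, 1.19 and 0.24. Pair 3 had the smallest difference on each of the 3 probes. Within slide 1, which holds pairs 1 and 2, A_52_P483101 differed by 2.31 ± 0.13 on the log2 scale (limma adjusted p = 0.0483 over all kept probes), a fit chosen after the values were seen. The other 2 probes did not pass there (adjusted p = 0.0782 and 0.136). With the mean of its 3 probes standing for the gene, Lpin1 had a log2 fold change of 1.12 over all 6 arrays (adjusted p = 0.0860).

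**Figure D2:**
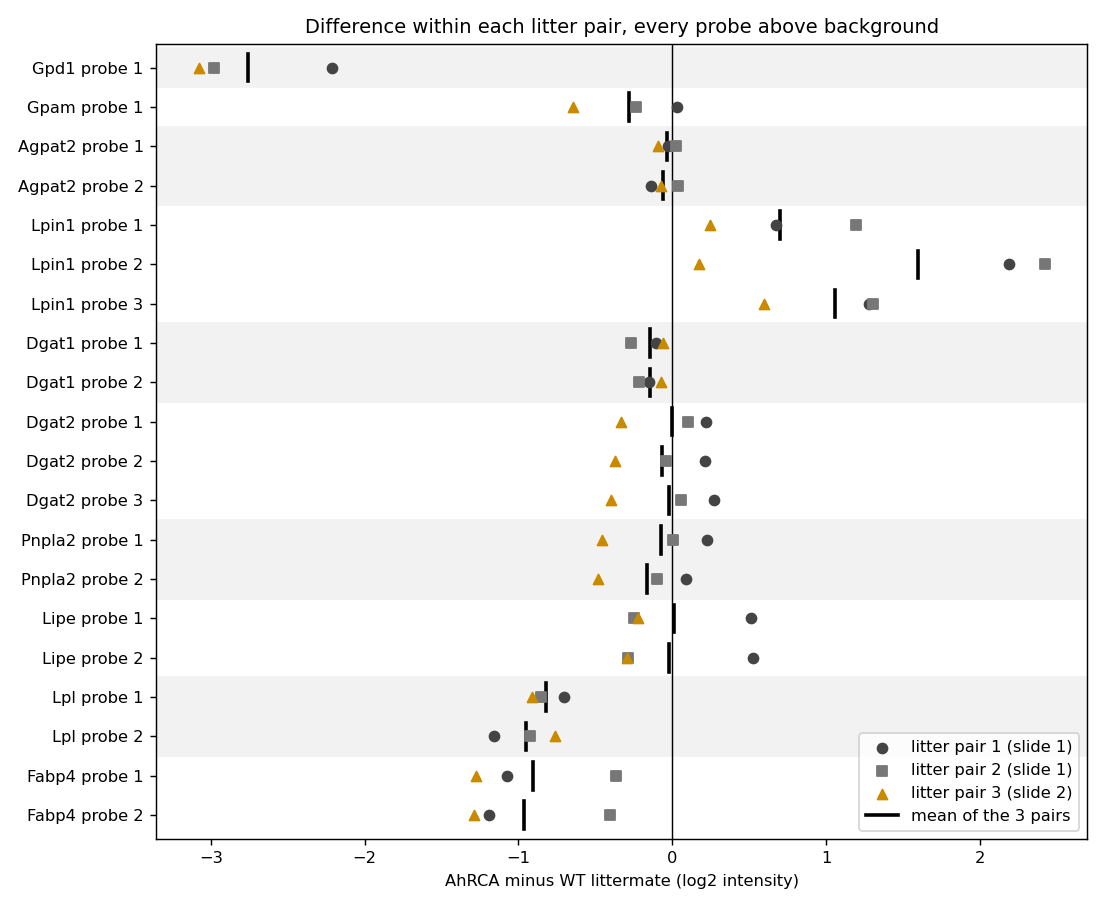
Difference in log2 intensity between the AhRCA mouse and its WT littermate for each of the 20 kept probes of the 10 genes, 1 point per litter pair with slide 2 in ochre; the black bar is the mean of the 3 pairs, and probe 1 of a gene is its brightest. Gpd1 lies below -2 in every pair and Lpl between -1.16 and -0.70, while the 3 Lpin1 probes spread from 0.18 to 2.42.

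For the enzymes of fatty acid release the groups overlapped on every kept probe. Pnpla2, adipose triglyceride lipase, which removes the first fatty acid, had 1.65, 1.66 and 1.93 in AhRCA and 1.43, 1.66 and 2.39 in WT. Within the litters the log2 differences were 0.23, 0.00302 and -0.45, and the log2 fold change was -0.08 ± 0.25 (95% interval -0.68 to 0.53, adjusted p = 0.999, limma). Lipe, hormone-sensitive lipase, had 0.70, 0.50 and 0.26 in AhRCA and 0.19, 0.75 and 0.48 in WT. Only litter pair 1 had the higher value in the AhRCA mouse, by 0.51, and the 95% interval of the log2 fold change was -0.43 to 0.46.

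Lpl, lipoprotein lipase, stood at -2.08, -1.54 and -1.94 in AhRCA, against -1.38, -0.68 and -1.02 in WT. Every AhRCA value was below every WT value, and the litters differed by similar amounts of -0.70, -0.85 and -0.91. The log2 fold change was -0.82 ± 0.22 (95% interval -1.35 to -0.29) and did not pass (adjusted p = 0.153, limma). Blocking on the slide, Lpl did not pass either (limma adjusted p = 0.142). Blocking on the litter pair, Lpl passed (limma adjusted p = 0.0225), and 2 of the 10 genes, Gpd1 and Lpl, then fell and 0 rose. That fit, which rests on the assumed pairing by replicate number, called 3.88% of all genes, 2.81% lower and 1.07% higher in AhRCA. The other Lpl probe had a log2 fold change of -0.95 ± 0.24 and also had groups that did not overlap. Fabp4, the fatty acid-binding protein of adipocytes and macrophages, stood at -1.10, 0.53 and -0.84 in AhRCA and at -0.03, 0.90 and 0.43 in WT. The value of AhRCA 2 lay inside the WT range, although the AhRCA mouse was the lower one in all 3 litters. The log2 fold change was -0.91 ± 0.46 (adjusted p = 0.554, limma), and it was -1.41 without AhRCA replicate 2 (adjusted p = 0.146).

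The genes around the 10 members were taken from 6 lists of 71 genes, of which 55 were tested. The lists were chosen with earlier results of these data known, so their shares of called genes are descriptive only. Of the 55, 1 rose and 6 fell (12.7% called, limma, against 2.18% of all tested genes). At an unadjusted p under 0.05, 2 of the 55 were higher and 13 lower, against 4.62% and 7.57% of all tested genes. The median log2 fold change of the 55 was -0.12. Blocking on the litter pair, 1 rose and 9 fell. The 6 genes that fell were 3 lipid droplet proteins, the monoglyceride lipase Mgll, the fatty acid transporter Slc27a1 and the transcription factor Pparg. The gene that rose was Vldlr, a lipoprotein receptor. Leaving out 1 array at a time left between 1 and 6 of the 55 called.

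Lipid droplet proteins coat the stored triglyceride. Of 8 tested, 3 fell and 0 rose, with a median log2 fold change of -0.58, and 4 members were below the filter. Plin4, a perilipin, stood at -4.95, -5.24 and -4.48 in AhRCA and at -2.44, -1.31 and -2.31 in WT (log2 fold change -2.87 ± 0.34, adjusted p = 0.0136, limma). It was well above background on 1 of 3 AhRCA arrays, its log2 fold change with normexp background correction was -1.33, and its call was lost without AhRCA replicate 1 (adjusted p = 0.0536), without AhRCA replicate 2 (0.0627) and within slide 1 (0.0716). Cidea, which is known to promote the fusion of lipid droplets, stood at 1.03, 1.14 and 0.86 in AhRCA and at 3.03, 3.58 and 2.99 in WT, a fall of 4.57-fold (adjusted p = 0.00500, limma). Plin2, the perilipin of most cell types, stood at 1.99, 1.90 and 1.77 in AhRCA and at 2.96, 3.21 and 2.91 in WT, a fall of 2.20-fold (adjusted p = 0.0113, limma). All 3 had groups that did not overlap. Plin2 lost its call without AhRCA replicate 2 (adjusted p = 0.0610), without WT replicate 2 (0.0504) and within slide 1 (0.0516).

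Among 8 tested partners of lipolysis and other lipases, 1 fell and 0 rose. Mgll, which cleaves monoglycerides in the last step of lipolysis, stood at 1.83, 1.75 and 1.41 in AhRCA and at 2.94, 3.20 and 2.48 in WT. The groups did not overlap, and the log2 fold change was -1.21 ± 0.21 (adjusted p = 0.0463, limma). Its call was lost under median scaling (adjusted p = 0.100), with no filter on dim probes (0.103), with every probe tested (0.0716) and on leaving out any array but WT 3 (at most 0.149). G0s2, an inhibitor of Pnpla2 that was chosen after its values were seen, was well above background on 0 of 3 AhRCA arrays and on 3 of 3 WT arrays. It was at least 2.65-fold lower in AhRCA, set against the dimmest signal well above background, and did not pass (limma adjusted p = 0.0622) unless blocked on the litter pair (0.0370) or the slide (0.0331). Abhd5, the activator of Pnpla2, had a log2 fold change of 0.14 ± 0.16.

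Of 13 tested partners of Lpl and fatty acid uptake genes, 1 rose and 1 fell. Vldlr, the very low density lipoprotein receptor, stood at 0.52, 0.66 and 0.50 in AhRCA and at -0.15, -0.17 and -0.00594 in WT (log2 fold change 0.67 ± 0.11, adjusted p = 0.0349, limma). Slc27a1, a fatty acid transport protein, stood at -0.18, -0.09 and 0.02 in AhRCA and at 0.52, 0.55 and 0.53 in WT (log2 fold change -0.61 ± 0.10, adjusted p = 0.0402, limma). In both genes the groups did not overlap, yet both calls were lost under median scaling, with no filter on dim probes, with every probe tested, within slide 1 and without any 1 array (adjusted p up to 0.170 for Vldlr and 0.181 for Slc27a1). Gpihbp1, the endothelial anchor of Lpl, had a log2 fold change of 0.06 ± 0.30.

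Of 10 tested lipogenic transcription factors, 1 fell and 0 rose. Pparg, the nuclear receptor known to drive lipid storage in adipocytes and sebocytes, stood at -2.92, -2.61 and -2.17 in AhRCA and at -0.83, -0.60 and -0.72 in WT. The groups did not overlap, and the fall was 3.61-fold (adjusted p = 0.0105, limma). The call was lost without AhRCA replicate 2 (adjusted p = 0.0610) and without WT replicate 2 (0.0504). Mlxipl, which responds to glucose, and the coactivator Ppargc1a, both chosen after their values were seen, did not pass (limma adjusted p = 0.0534 and 0.143) unless blocked on the litter pair (0.0422 and 0.0353) or the slide (0.0236 and 0.0486). The Ppargc1a probe was well above background on 1 of 3 AhRCA arrays. Cebpa and Srebf1, which also promote lipid synthesis, had log2 fold changes of -0.01 ± 0.11 and 0.10 ± 0.18.

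The lists nearest to Gpd1 and to the other acyltransferases held no called gene. Of 5 tested genes of glycerol phosphate supply 0 passed (limma), and 1 had an unadjusted p under 0.05. Gk, glycerol kinase, the other route to glycerol 3-phosphate, had a log2 fold change of -0.40 ± 0.12 (limma adjusted p = 0.201) and groups that did not overlap. Gpd2, the mitochondrial glycerol-3-phosphate dehydrogenase, had -0.27 ± 0.13. Of 11 tested acyltransferases and phosphatidate phosphatases 0 passed, also at an unadjusted p under 0.05, and the log2 fold changes furthest from 0 were those of Mogat1 (-0.48 ± 0.41) and Agpat4 (-0.30 ± 0.13). Mogat1, a monoacylglycerol acyltransferase, was well above background on 1 AhRCA array and passed when blocked on the slide (limma adjusted p = 0.0331).

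**Figure D3:**
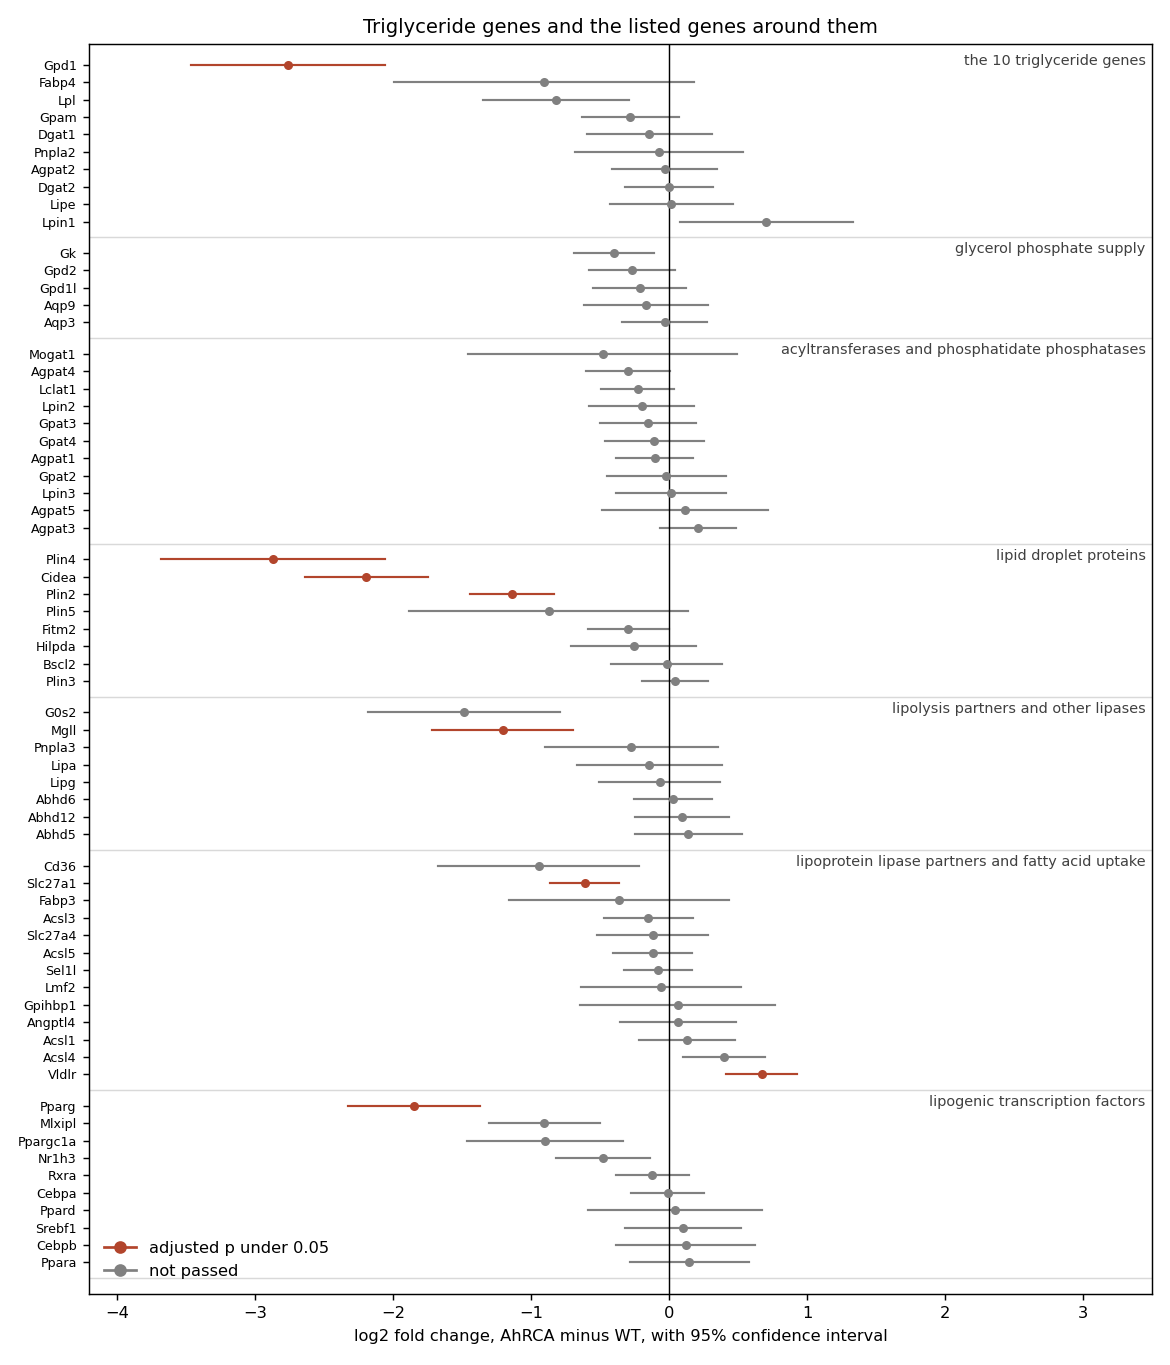
Log2 fold change (AhRCA minus WT) with its 95% confidence interval from limma for the 10 triglyceride genes and the 55 tested genes of the 6 surrounding lists, ordered within each list; red marks an adjusted p under 0.05 over all genes. The called genes are Gpd1 in the first list, 3 lipid droplet proteins, Mgll, Slc27a1, Vldlr and Pparg, and Vldlr is the 1 with a positive value.

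AhR is known to bind DNA with its partner ARNT at sites with the core GCGTG. RefSeq promoters (GRCm38.p6, 250 bases before to 50 after a transcript start) were held for 5 of the 10 genes, with 7 promoters, and were searched for GCGTG on both strands (CACGC on the printed strand for the reverse). The core was in 3 of these 7 promoters, against 32.4% of 32851 promoters of the same length. No promoter was held for Gpd1, the called member, or for Dgat1, Dgat2, Lpl and Fabp4, so these were not searched. Agpat2 held 1 core, 1 of the 2 Gpam promoters held 2, 1 of the 2 Lipe promoters held 1, and those of Lpin1 and Pnpla2 held 0. Promoters were also held for 6 of the 7 called genes of the surrounding lists, all but Cidea. Of the 12 promoters of these 6 genes, 5 held the core (41.7%). Among the genes that fell, Plin4 held 0 cores in its 1 promoter, Plin2 1 in its 1 promoter, Mgll 2 and 6 in its 2, Pparg 2, 0 and 0 in its 3 and Slc27a1 0, 0 and 1 in its 3. Vldlr, which rose, held 0 in both of its promoters. The promoters of Lpin1 and of the called genes with a single promoter, Plin4 and Plin2, are printed as examples of windows without and with the core, which is in capitals.
Lpin1 (chr12:16610917-16611216, minus strand): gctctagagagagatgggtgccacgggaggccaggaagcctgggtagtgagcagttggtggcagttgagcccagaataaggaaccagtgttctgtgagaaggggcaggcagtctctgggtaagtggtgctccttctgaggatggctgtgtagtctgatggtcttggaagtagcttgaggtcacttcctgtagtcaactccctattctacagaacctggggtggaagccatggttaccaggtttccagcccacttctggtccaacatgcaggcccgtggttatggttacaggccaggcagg
Plin4 (chr17:56109733-56110032, minus strand): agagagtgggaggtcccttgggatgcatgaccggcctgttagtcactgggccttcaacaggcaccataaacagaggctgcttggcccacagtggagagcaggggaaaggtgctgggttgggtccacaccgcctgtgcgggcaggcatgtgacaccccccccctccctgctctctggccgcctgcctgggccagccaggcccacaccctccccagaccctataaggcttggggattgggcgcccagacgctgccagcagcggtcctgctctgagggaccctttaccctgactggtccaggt
Plin2 (chr4:86670010-86670309, minus strand): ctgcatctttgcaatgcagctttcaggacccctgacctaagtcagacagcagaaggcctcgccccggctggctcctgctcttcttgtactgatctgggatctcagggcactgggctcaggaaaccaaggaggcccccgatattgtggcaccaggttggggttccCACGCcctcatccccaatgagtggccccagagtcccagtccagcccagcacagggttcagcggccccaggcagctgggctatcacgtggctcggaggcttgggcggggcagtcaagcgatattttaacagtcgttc
A match is a run of letters only, and a window without one says nothing about binding elsewhere.

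The genes most like Gpd1 over the 6 arrays were sought by Pearson's r among 12056 other genes well above background on all 6 arrays. They were Fam214b (r = 0.998), Fxyd6 (0.995), Fcgbp (0.994), Col16a1 (0.994) and Cidea (0.994). Their log2 fold changes lay between -2.23 and -0.23, a direction that the choice by likeness to Gpd1 fixes. For Lpl the 5 were Klhdc8a (r = 0.999), Gnmt (0.996), Aplp2 (0.993), Qpct (0.988) and Tgfbi (0.987). Their log2 fold changes lay between -0.83 and -0.18, with a direction fixed in the same way. All values of an array share its RNA and its scaling, and these r describe 6 arrays of 2 genotypes.

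Markers of other cells were measured on the same arrays. In whole tissue, fewer cells of a type and less RNA per cell cannot be told apart. The summed intensity of 11 sebaceous gland genes (in units of an array's 75th percentile) was between 72.8 and 82.6 in AhRCA and between 119 and 147 in WT. Krt79, a keratin of the sebaceous duct, made up 91.0% to 91.5% of that sum in AhRCA and 82.6% to 84.9% in WT. It had a log2 fold change of -0.63 ± 0.12 and did not pass (limma adjusted p = 0.0602) unless blocked on the litter pair (0.0317) or the slide (0.0294). Without Krt79 the sum was between 6.52 and 7.06 in AhRCA and between 18.5 and 25.6 in WT. The list also holds Cidea, named above as a lipid droplet protein and as 1 of the 5 genes most like Gpd1. Without Cidea alone the sum was between 71.0 and 80.4 in AhRCA and between 111 and 135 in WT. Of 10 tested genes of the list 6 fell. Fa2h, a fatty acid hydroxylase, was well above background on 0 of 3 AhRCA arrays and at least 25.3-fold lower there (limma adjusted p = 0.00546), and Mc5r was not well above background on any of the 6. The sum of 8 brown adipocyte genes was between 1.02 and 1.31 in AhRCA and between 1.73 and 1.93 in WT, and 1 gene carried that separation. This was Dio2, a deiodinase, the 1 gene of 5 tested that fell (log2 fold change -1.57 ± 0.23, adjusted p = 0.0248, limma). Without Dio2 the sum was between 0.820 and 1.09 in AhRCA and between 0.881 and 1.47 in WT, and the groups overlapped, as they did for each of the other 4 tested genes. Ucp1 had a log2 fold change of -0.41 ± 0.35, and Zic1 and Cox8b were not well above background on any array. The sebaceous sum and Dio2 were lower in the genotype where Gpd1 was lower, and their part in its value was not tested.

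White and general adipocyte genes were dim. Of 7 on the array 1 was well above background on all 6 arrays, Adipoq, Cfd, Plin1 and Cidec did not pass the filter, and Lep was not well above background on any array. Their summed intensity was between 0.564 and 0.759 in AhRCA and between 0.600 and 1.09 in WT, and the groups overlapped. That sum rested on Slc2a4, a glucose transporter, and without it was between 0.122 and 0.179 in AhRCA and between 0.200 and 0.425 in WT, with no overlap. Retn had a log2 fold change of -0.35 ± 0.40. The macrophage sum, of cells known to hold Lpl and Fabp4, was between 5.73 and 7.03 in AhRCA and between 3.74 and 4.45 in WT. Of 6 tested genes 2 rose, C1qa by a log2 fold change of 0.86 ± 0.15 (limma adjusted p = 0.0480). Of the 7 macrophage genes on the array 6 were well above background on all 6 arrays, and Lyz2 was not on any. The macrophage sum was higher in the genotype where Lpl was lower. Within each genotype the array with the lowest Lpl, AhRCA 1 and WT 1, also had the lowest macrophage sum (5.73 and 3.74). The keratinocyte sum was between 1433 and 1733 in AhRCA and between 1520 and 1661 in WT. The fibroblast sum was between 23.5 and 24.4 in AhRCA and between 22.7 and 30.7 in WT. Of its 8 genes 6 were well above background on all 6 arrays, and Pdgfra was not on any. Dcn made up 71.8% to 76.7% of it in AhRCA and 72.1% to 75.8% in WT. Of 7 tested fibroblast genes 3 had negative log2 fold changes. Col1a2 had -1.19 ± 0.23 and groups that did not overlap (limma adjusted p = 0.0622, and 0.0464 when blocked on the slide). Col3a1 went the other way, with 0.85 ± 0.68. The skeletal muscle sum was between 1.09 and 1.381 in AhRCA and between 1.379 and 1.57 in WT, so that the groups just overlapped. Of its 7 genes 4, Ckm and Myog among them, were not well above background on any array. Mylpf made up 73.7% to 81.5% of the sum in AhRCA and 63.0% to 71.9% in WT. Without Mylpf it was between 0.255 and 0.357 in AhRCA and between 0.388 and 0.582 in WT, with no overlap. Leaving out Acta1 or Ckm instead also gave no overlap, while without Myh8, Tnnt3, Myog or Myh3 the groups still overlapped. Myh8 had a log2 fold change of -1.23 ± 0.32 (limma adjusted p = 0.140, and 0.0444 when blocked on the litter pair). The part of these cells in the Lpl and Fabp4 values was not tested.

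**Figure D4:**
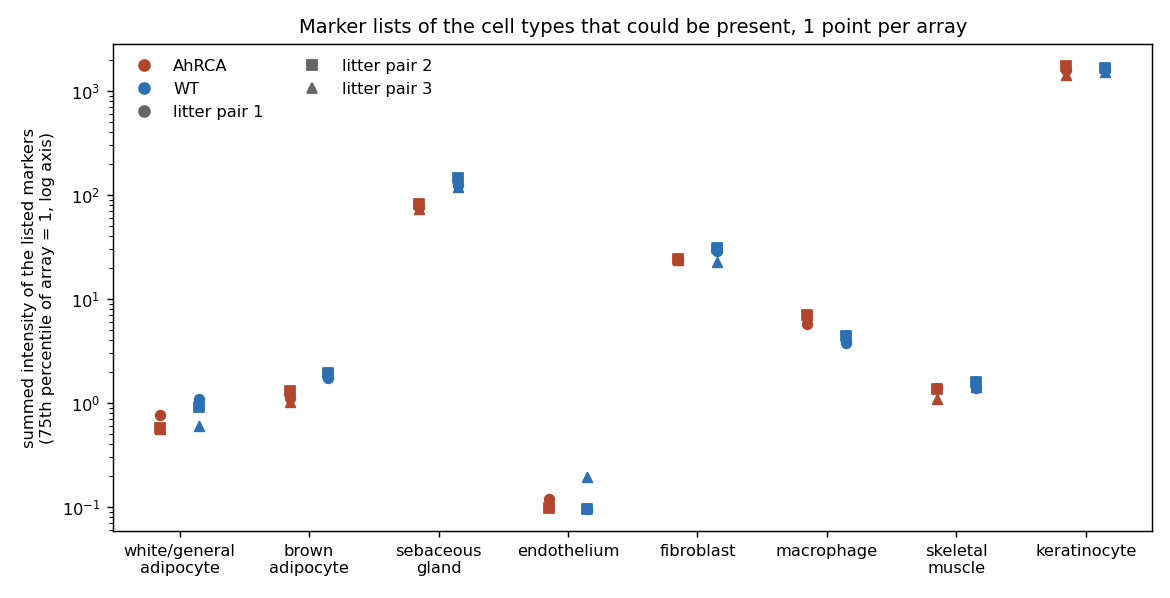
Summed intensity of each marker list on a log axis (an array's 75th percentile is 1), 1 point per array, with AhRCA in red left of WT in blue and point shapes for litter pairs. The sebaceous gland sum, mostly Krt79, and the brown adipocyte sum, which overlaps without Dio2, are lower on every AhRCA array than on any WT array and the macrophage sum is higher, while the keratinocyte and white adipocyte sums overlap, the white adipocyte sum only with Slc2a4 in it.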

How the data were processed

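Scanner values were spot intensities deposited by the authors, made with Agilent Feature Extraction 10.7.3.1, which subtracted background and removed spatial trends within each array, per the file headers. RNA was Cy3-labelled, per the labels' protocols. The authors' deposited log2 table was used as an alternative: differences between its arrays equalled those of the log2 intensities (slope 1), each probe is centred on its median, and scale and direction follow the intensities. Its columns had medians of 0.03, 0.06 and -0.07 in AhRCA 1 to 3 and -0.07, -0.05 and 0.08 in WT 1 to 3.

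From the intensities, log2 values minus each array's log2 75th percentile (627 to 754) were computed; control spots and 56 to 94 outlier spots per array were left out and replicate spots averaged. Symbols came from unversioned RefSeq accessions (GRCm38.p6 table; 26690 of 41174 probes matched). As the array design is on another build, no probe coordinates are given. The coordinates printed with promoters are those of GRCm38.p6. A probe was kept if 3 or more of the 6 arrays had it well above background. Each gene was read by its brightest kept probe, averaged over the 6 arrays. Genotypes were compared with limma 3.58.1 (R 4.3.3; lmFit, eBayes, 2 group means, two-sided, Benjamini-Hochberg over all genes, threshold 0.05), after a test on simulated data. 3 genes had a missing value; none is a member. Separate mice were the replicates.

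Replicate numbers were assumed to pair littermates, as the study's design text gives 1 AhRCA and 1 WT littermate per sampling. Same-numbered arrays correlated in their deviations from the group means (0.337, 0.372 and 0.550 over 12821 genes), others between -0.416 and 0.194. Pair 3 is alone on slide 2, so that its value can also reflect the slide. Within slide 1 the arrays with unlike numbers had 0.150 and 0.194. These values therefore do not establish the pairing. The files hold no mean spot signal, so normexp used the median spot and background signals (offset 50).

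The members, lists and tests were chosen with earlier results of these data known. The text names all 10 members, the called genes of each pathway list (up to 4, or the 2 furthest from 0 where none passed), the 5 genes most like Gpd1 and Lpl, and markers of each list.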

Additional observations from a re-analysis of the deposited data

Results flagged for a closer look

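A probe of Mgll that did not stand for its gene, A_52_P609778, passed when every kept probe was tested on its own. Its log2 fold change was -1.18 ± 0.17 (adjusted p = 0.0414, limma), with 1.14, 1.09 and 0.87 in AhRCA and 2.24, 2.47 and 1.93 in WT, so that the groups did not overlap. The brighter Mgll probe had -1.21 ± 0.22 and an adjusted p of 0.0716 in that test. Among the kept probes of the 10 triglyceride genes, 1 passed, the Gpd1 probe already described (adjusted p = 0.0193).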

How the results depend on the processing

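The count of called genes, 279, was 132 with no filter on dim probes, 497 with the replicate pair as a block, 539 with the slide as a block, 130 within slide 1 and between 62 and 195 without any 1 array. Of the 10 triglyceride genes 1 was called; 2 were called with the replicate pair as a block, 0 within slide 1 (limma, 2 at an unadjusted p under 0.05) and 1 without any 1 array. Of the 55 pathway genes 7 were called. The count was 4 under median scaling, 4 with no filter and 11 with the slide as a block. It was 3 within slide 1 and between 1 and 6 without any 1 array. The cause of these changes in count was not tested, and the fits that left out arrays also rested on fewer of them. The Gpd1 log2 fold change lay between -2.95 and -1.98 over 17 alternatives and kept its call in 16. Uncalled values near 0 changed sign. Agpat2 was 0.000996 under median scaling and -0.13 to 0.10 without any 1 array. Dgat2 was 0.0284 under median scaling, 0.00912 with normexp and 0.16 within slide 1, and -0.0835 to 0.0814 without any 1 array. Pnpla2 was 0.11 within slide 1 and -0.27 to 0.21 without any 1 array. Lipe was -0.0208 with normexp and -0.00297 with the mean of its probes, and -0.13 to 0.15 without any 1 array. Among the named genes other than those chosen for their likeness to Gpd1 or Lpl, the replicate block changed the calls of Lpl, G0s2, Mlxipl, Ppargc1a, Krt79 and Myh8 and of no other. The marker sums with a gene left out were chosen after seeing the data. The blocked Gpd1 log2 fold change was -2.76 (adjusted p = 0.0115). Scaling moved the median of all genes by at most 0.03. Dim probes such as those of Plin4 and G0s2 in AhRCA limit how far a fall can be measured.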
